A study of Rattus norvegicus with 6 samples.

Results

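Mitosis, spindle and kinetochore genes encode the proteins that carry a cell from the end of DNA replication through chromosome segregation to cytokinesis. The set held 45 genes named by function, among them the mitotic cyclins and kinases, the spindle checkpoint, the chromosomal passenger complex, the mitotic kinesins, the kinetochore and the cytokinesis machinery, and a member was a row of the count table with its symbol. 44 of the 45 were found among the 14475 genes of the table, and Foxm1 was not matched by its symbol and was not analysed here. RNA was sequenced from vascular smooth muscle (VSM) cells grown in culture from the soleus feed artery, or SFA, which supplies the soleus muscle, of male Fischer 344 rats. The young group was 3 rats aged 4 months and the old group was 3 rats aged 24 months, with 1 library per rat, and no treatment or modified allele is named for either group. The cells of both groups were isolated and grown in medium with serum, so the values describe cultured cells and not the artery wall, and the passage and confluence at which RNA was taken are not stated in the labels or methods.

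Mitotic genes are transcribed in waves. In resting cells most of them are held silent by a repressor complex called DREAM, and in dividing cells the factors B-Myb and FOXM1, with the MuvB core that they share with DREAM, switch them on in G2 and mitosis. Promoters of this class often carry the cell cycle genes homology region (CHR), an element that the MuvB core binds, together with CCAAT boxes bound by NF-Y. Some of the protein products are then destroyed at the end of mitosis by the anaphase-promoting complex (APC/C). VSM cells in the wall of an adult artery rarely divide, whereas in culture with serum they leave the contractile state and proliferate.

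The count table gives no gene positions, and promoter sequences were taken from RefSeq for assembly GRCr8, which is not the assembly the reads were aligned to. A window from 250 bases before to 50 bases after the annotated start was found for 37 of the 45 named genes. No window was matched for Tpx2, Foxm1, Incenp, Aurkb, Kif14, Ube2c, Ccna2 and Racgap1. The windows were searched on both strands for the CHR (TTTGAA), a CHR variant (TTTAAA), the CCAAT box (CCAAT) and for E2F sites written as TTTCCCGC and TTTGGCGC, and none of these strings contains another. TTTGAA was present in 25 of the 37 windows (67.6%), against 19.4% of the windows of all 27457 genes. TTTAAA was present in 13 (35.1%, against 14.6%) and CCAAT in 25 (67.6%, against 39.6%). Either TTTGAA or TTTAAA was found in 33 windows (89.2%, against 29.6%), and 24 windows (64.9%, against 12.1%) held such a string and CCAAT as well. TTTCCCGC was found in 0 windows (against 1.09%) and TTTGGCGC in 1, that of Kif18a (2.7%, against 0.554%). These matches describe letters in the windows, and no binding was measured.

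The 150 bases before the start of 7 members are printed 5′ to 3′ along the gene, with each of the searched strings or its reverse complement in capitals. Cdk1, Cdc20 and Top2a opened their groups of genes below, Ccnb2 had the smallest age difference among the cyclins, Prc1 and Anln were the members called by DESeq2, and Kif18a had no CHR string in its window.
Cdk1, chr20:19265143-19265292, plus strand: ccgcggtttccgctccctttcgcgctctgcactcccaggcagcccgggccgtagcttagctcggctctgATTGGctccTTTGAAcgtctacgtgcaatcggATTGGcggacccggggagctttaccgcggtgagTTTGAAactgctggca
Ccnb2, chr8:79981659-79981808, minus strand: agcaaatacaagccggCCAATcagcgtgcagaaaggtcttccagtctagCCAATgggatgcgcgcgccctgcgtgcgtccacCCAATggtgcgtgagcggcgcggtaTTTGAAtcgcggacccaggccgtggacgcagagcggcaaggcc
Cdc20, chr5:137255800-137255949, minus strand: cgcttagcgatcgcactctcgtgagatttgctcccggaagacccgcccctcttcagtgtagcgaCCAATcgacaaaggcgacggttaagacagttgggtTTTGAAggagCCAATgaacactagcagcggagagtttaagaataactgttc
Prc1, chr1:143659331-143659480, plus strand: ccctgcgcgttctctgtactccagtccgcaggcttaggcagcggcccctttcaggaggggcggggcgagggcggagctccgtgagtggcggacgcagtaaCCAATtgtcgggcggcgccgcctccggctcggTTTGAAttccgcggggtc
Anln, chr8:29197514-29197663, minus strand: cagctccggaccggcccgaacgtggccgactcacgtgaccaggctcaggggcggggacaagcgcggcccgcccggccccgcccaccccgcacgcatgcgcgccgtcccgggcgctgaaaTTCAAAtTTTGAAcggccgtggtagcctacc
Top2a, chr10:84473094-84473243, minus strand: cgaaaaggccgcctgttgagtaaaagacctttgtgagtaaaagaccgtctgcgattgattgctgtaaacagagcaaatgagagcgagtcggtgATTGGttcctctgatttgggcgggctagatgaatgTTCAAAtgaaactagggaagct
Kif18a, chr3:116218857-116219006, plus strand: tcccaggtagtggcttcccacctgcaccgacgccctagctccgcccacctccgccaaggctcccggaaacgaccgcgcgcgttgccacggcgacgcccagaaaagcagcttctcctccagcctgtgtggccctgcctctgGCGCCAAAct
Cdk1, Ccnb2, Cdc20, Prc1 and Top2a showed a CHR string and a CCAAT box in this stretch. Anln showed CHR strings on opposite strands next to each other and no CCAAT box, and Kif18a showed only the E2F string, in reverse complement.

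Total counts on genes ranged from 44235674 to 59700887 per library, and each member had between 82 and 8141 counts in every library. Levels are given as CPM, counts scaled to a common library size after TMM normalization, and since the CPM of different genes also depend on transcript length, levels are compared only between libraries of the same gene. The cultures carried VSM markers in all 6 libraries, with Acta2 (smooth muscle actin) between 1126 and 10381 CPM, while Des (desmin) was at 2.99 CPM or less. All 8 VSM markers had a lower mean in old cells, and their summed level was between 11207 and 20995 CPM in young and between 3448 and 5562 CPM in old. The 5 fibroblast markers that were matched (Tcf21 was not) summed to 174 to 435 CPM in young and 494 to 1311 CPM in old, with Dcn at 1.16 to 19.9 CPM in young and 26 to 411 CPM in old. The summed levels of matched endothelial markers (4 of 6, 4.01 to 18.2 CPM) and macrophage markers (2 of 6, 0.407 to 2.9 CPM) were low in every library. The Schwann cell markers (3 of 6 matched) summed to 12.5 to 75.2 CPM in young and 54.3 to 85.4 CPM in old, nearly all of it S100b. Of the 8 skeletal muscle markers only Acta1 and Tnnt3 were matched, and their means moved in opposite directions. Acta1 was at 72.1 to 256 CPM in young and at 5.97 to 17.6 CPM in old. Tnnt3 was at 7.78 to 12.8 CPM in young and at 10.6 to 28.4 CPM in old, with overlapping groups. Cdh5, Tie1, Ptprc, Adgre1, C1qa, C1qb, Pax7, Myf5, Myod1, Myog, Ckm, Myh3, Sox10 and Cdh19 were among the markers not matched to a row. The part of these cell type differences in the results on mitotic genes was not tested.

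Mitotic genes were lower in old than in young VSM cells on average, and the old libraries differed widely among themselves. Summed over the 44 genes, the level was 2215, 1374 and 2211 CPM in young replicates 1, 2 and 3 (young 1 to 3) and 1529, 469 and 326 CPM in old replicates 1, 2 and 3 (old 1 to 3). Old 1 lay within the range of the young libraries, and old 2 and old 3 lay far below it. As a share of all counts, the 44 genes took 0.138% to 0.226% in young, 0.151% in old 1, 0.0486% in old 2 and 0.0323% in old 3. The same split was seen gene by gene. Relative to the mean of the young libraries, the median of the 44 genes was 80.8% in old 1 (range 60.5% to 92.5%), 24.3% in old 2 (range 17% to 43%) and 16.7% in old 3 (range 11.2% to 33.4%). Young 2 was the lowest young library for 44 of 44 genes, with a median of 71.9% of the young mean. In this bulk RNA, fewer dividing cells and less mitotic RNA per dividing cell cannot be told apart.

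**Figure D1:**
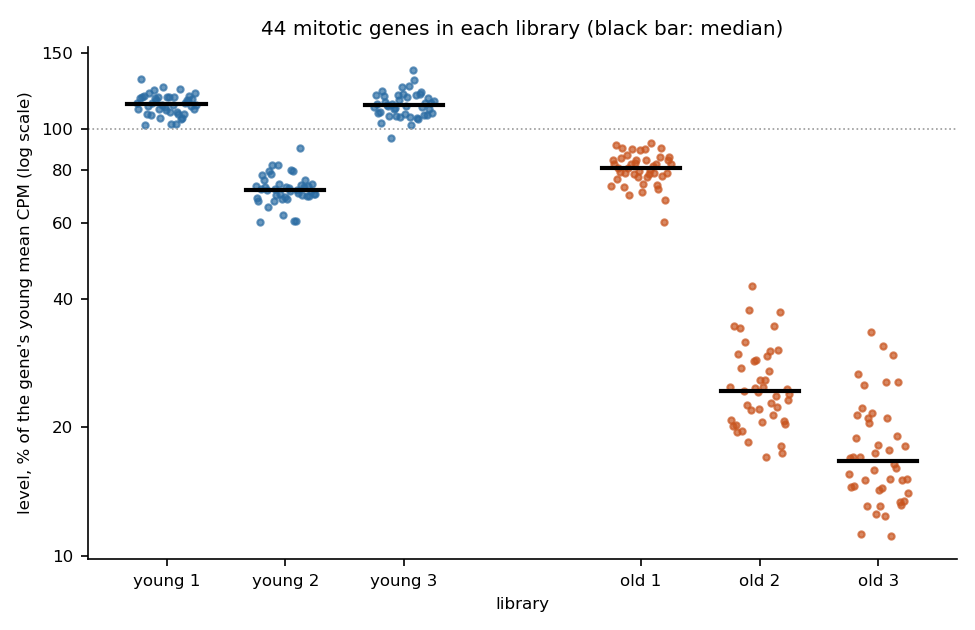
Level of each of the 44 mitotic genes in each library, as a percentage of the mean CPM of that gene over the 3 young libraries (vertical axis, log scale), with 1 point per gene and black bars at the median. Old 1 (median 80.8%) sits among the young libraries, and old 2 (median 24.3%) and old 3 (median 16.7%) sit below all of them.

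In the edgeR quasi-likelihood test the log2 fold change (old minus young) was negative for 44 of 44 mitotic genes, compared with 48% of all genes tested. The median was -1.28 (range -1.72 to -0.95), against 0.02 over all genes. 42 of the 44 had a log2 fold change of -1 or lower, as did 6.34% of all genes. However, 0 of the 44 passed an adjusted p of 0.05, and their adjusted p lay between 0.169 and 0.339. The same test called 0.00691% of all genes (1 of 14475) as downregulated. At an unadjusted p under 0.05 the edgeR test found 12 of the 44 lower in old, against a background of 11.5% of all genes. Standard errors were between 0.32 and 0.69 on the log2 scale and exceeded 0.5 for 35 genes. The DESeq2 Wald test on the same counts called 2 of the 44 as downregulated (4.55%), Prc1 and Anln, where it called 3.31% of all genes, and limma-voom called 0. With any library other than old 1 left out, DESeq2 called 0 of the 44. At an unadjusted p under 0.05, DESeq2 found 42 of the 44 lower in old, against 13.6% of all genes, and limma-voom found 42, against 12.6%.

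Among the mitotic genes the spread between libraries was wider in the old group. The coefficient of variation of the mitotic genes had a median of 86.4% among the old libraries (range 46% to 101%) and of 24.8% among the young libraries (range 8.56% to 38.1%). Over all genes these medians were 16.8% and 11.8%. The 3 old libraries were all below the 3 young ones for 11 of the 44 genes, and the same held for 14.7% of all genes. In the other 33 genes the overlap came from old 1, which was above young 2. Without young 2 the groups were separate for 44 of the 44 genes, and for 18.8% of all genes. The ratio of old 1 to young 2 had a median of 1.12 and ranged from 0.824 (Prc1) to 1.52. Old 2 and old 3 were below the other 4 libraries for 44 of the 44 genes, against 20.2% of all genes. In addition, 43 of the 44 had old 3 below old 2, these below old 1 and young 2, and those below young 1 and young 3, an order that was read from these genes and that 4.19% of all genes followed. The exception was Kif18a, with 2.67 CPM in old 2 and 3.21 CPM in old 3.

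Leaving out old 1 changed the calls more than leaving out any other library. Without old 1 the edgeR test called 43 of the 44 mitotic genes as downregulated, against 3.47% of all genes, and DESeq2 called 44, against 5.82%. The median log2 fold change of the 44 was then -2.31 (range -2.76 to -1.39), while the median over all genes stayed at 0.02. Ccnb2 was the gene not called by edgeR (log2 fold change -1.95, standard error 0.47, adjusted p = 0.0625). Without any of the other libraries edgeR called 0 of the 44. Old 1 was the old library with the highest level of every mitotic gene, so its omission removes the old culture closest to the young ones, and 2 old libraries remain. Nothing in the labels marks old 1 as different. For VSM markers, old 1 lay with the old libraries, at 5562 CPM summed against 11207 CPM in the lowest young library. For fibroblast markers, old 1 lay close to the highest young library, with a sum of 494 CPM against 435 CPM in young 1, while old 2 and old 3 reached 1311 and 688 CPM. Of the 5 matched fibroblast markers, Dcn was at 26 CPM in old 1 (19.9 in young 1) and at 411 and 119 CPM in old 2 and old 3, Lum was at 70.9 CPM (101 in young 1) and at 255 and 165 CPM, and Pi16 was at 3.86 CPM (3.97 in young 1) and at 6.37 and 8.12 CPM. Pdgfra was at 376, 635 and 381 CPM in old 1 to 3, and Dpt at 17, 2.62 and 15.3 CPM, so these markers did not set old 1 apart in this way. The part of the fibroblast markers in the mitotic results was not tested.

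**Figure D2:**
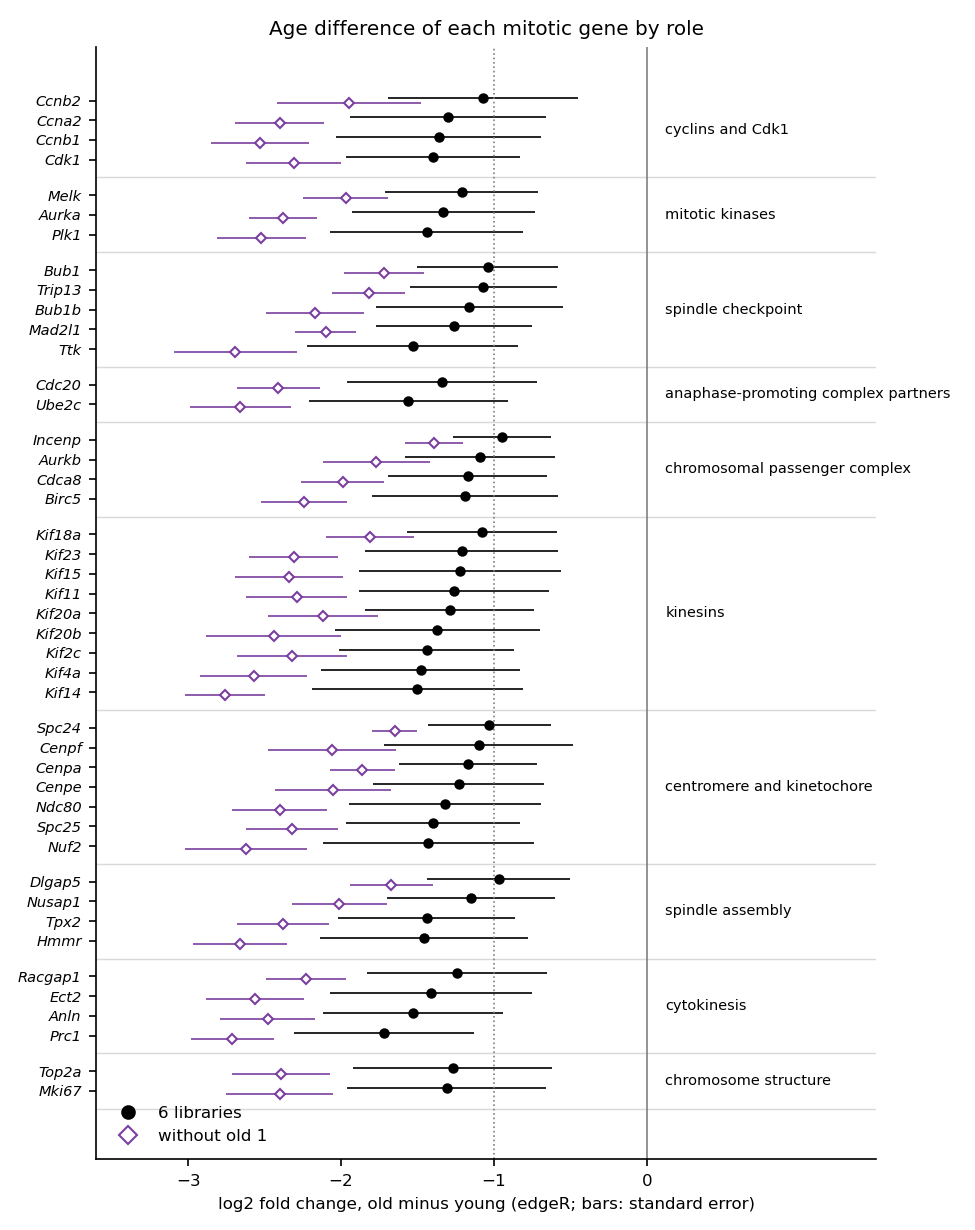
Log2 fold change (old minus young, edgeR) of each mitotic gene by role, with all 6 libraries (filled circles) and without old 1 (open diamonds), and bars for the standard error. All 44 estimates lie below 0 in both fits, with medians of -1.28 and -2.31.

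Cyclins and Cdk1 drive entry into mitosis. Cdk1, the kinase that phosphorylates the mitotic substrates once a B-type cyclin is bound, was at 81.7, 52.4 and 80 CPM in young 1 to 3 and at 52.3, 17.7 and 11.1 CPM in old 1 to 3. The groups of Cdk1 did not overlap, although young 2 and old 1 were almost equal. edgeR gave it a log2 fold change of -1.40 ± 0.57 (SE, adjusted p = 0.214), and -2.31 without old 1 (adjusted p = 0.0286). Ccnb2, a B-type cyclin, was at 18.6, 8.58 and 15.5 CPM in young and at 13, 4.92 and 2.43 CPM in old. Old 1 was above young 2 for Ccnb2, by a factor of 1.52, and the log2 fold change was -1.07 (standard error 0.62, edgeR adjusted p = 0.339). Ccna2 (cyclin A2) and Ccnb1 (cyclin B1) had log2 fold changes of -1.30 and -1.36.

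The mitotic kinases Plk1, Aurka and Melk had their lowest levels in old 2 and old 3. Plk1, the polo-like kinase of mitotic entry and centrosome maturation, was at 47.5, 29 and 43.8 CPM in young and at 30.5, 8.12 and 5.86 CPM in old. The log2 fold change of Plk1 was -1.44 (standard error 0.63, edgeR adjusted p = 0.234), and old 1 was slightly above young 2. Aurka, the Aurora kinase of centrosomes and spindle poles, and Melk, a kinase of proliferating cells, had log2 fold changes of -1.33 and -1.21. Without old 1 the 3 kinases had values from -2.52 to -1.97, and edgeR called all of them.

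The spindle checkpoint delays anaphase until every kinetochore is attached, and its 5 genes had a median log2 fold change of -1.16. Bub1, a checkpoint kinase at kinetochores, had the smallest difference, with 58.4, 39.5 and 64.2 CPM in young and 46.2, 18.5 and 14.4 CPM in old (log2 fold change -1.04, standard error 0.46, edgeR adjusted p = 0.237). Ttk, the kinase that starts checkpoint signalling, had the largest, with 28.5, 15.4 and 26.7 CPM in young and 17.2, 4.62 and 2.65 CPM in old (log2 fold change -1.53, standard error 0.69, edgeR adjusted p = 0.243). Both genes had old 1 between young 2 and the other young libraries. Trip13, an ATPase that remodels the checkpoint protein Mad2, was among the members with the fewest counts (2948 over the 6 libraries) and was at 15.1, 10.3 and 14.1 CPM in young and at 11.4, 4.16 and 3.3 CPM in old (log2 fold change -1.07). Bub1b (BubR1) had a log2 fold change of -1.16, and Mad2l1 (Mad2), with groups that did not overlap, of -1.26.

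Cdc20 and Ube2c serve the APC/C, the ubiquitin ligase that triggers anaphase. Cdc20, its mitotic activator, was at 58.2, 38.9 and 45.1 CPM in young and at 38.3, 10.7 and 7.13 CPM in old. The groups did not overlap, by a margin of less than 1 CPM between young 2 and old 1, and the log2 fold change was -1.34 (standard error 0.62, edgeR adjusted p = 0.251). Ube2c, the ubiquitin-conjugating enzyme of the APC/C, had a log2 fold change of -1.56, the largest difference outside the cytokinesis genes.

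The chromosomal passenger complex corrects faulty attachments and then moves to the midzone, and its 4 genes had a median log2 fold change of -1.13, close to that of the spindle checkpoint genes. Incenp, the scaffold of the complex, was at 33.9, 25.1 and 32.6 CPM in young and at 23.9, 13.1 and 10.2 CPM in old. Its groups did not overlap and its old libraries were the least scattered of all 44 genes. The log2 fold change of Incenp was -0.95 (standard error 0.32, edgeR adjusted p = 0.169), and in DESeq2 the adjusted p was 0.0485 with a log2 fold change just above -1. Aurkb, the kinase of the complex, was at 29, 18 and 27.7 CPM in young and at 20.6, 9.35 and 5.24 CPM in old (log2 fold change -1.09). Birc5 (survivin) was at 19.6, 11.6 and 18.5 CPM in young and at 14.8, 3.64 and 3.4 CPM in old (log2 fold change -1.19). For Aurkb and Birc5 old 1 was above young 2, and Cdca8 (borealin) had a log2 fold change of -1.17.

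Kinesins move chromosomes and slide or shorten spindle microtubules. Kif11 (Eg5), which pushes the spindle poles apart, was at 54.4, 33.7 and 56 CPM in young and at 40.6, 11.9 and 7.65 CPM in old (log2 fold change -1.26, standard error 0.62, edgeR adjusted p = 0.275). Kif14, a kinesin of cytokinesis with 2529 counts over the 6 libraries, had the largest difference of the 9 kinesins, from 14, 9.87 and 13.1 CPM in young to 9.47, 2.1 and 1.53 CPM in old (log2 fold change -1.50, standard error 0.69, edgeR adjusted p = 0.249). Its groups did not overlap, and without old 1 its log2 fold change of -2.76 was the largest of all 44. Kif18a, which dampens chromosome movements, had the smallest difference and the fewest counts of any member (2306), with 10.6, 7.38 and 13 CPM in young and 8.72, 2.67 and 3.21 CPM in old (log2 fold change -1.08). The log2 fold change was -1.44 for Kif2c (MCAK, a microtubule depolymerase, with separate groups), -1.48 for Kif4a, -1.37 for Kif20b, -1.29 for Kif20a, -1.22 for Kif15 and -1.21 for Kif23 of the centralspindlin complex.

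Centromere and kinetochore genes build the site where microtubules attach. Cenpa, the histone variant that marks centromeres, was at 24.5, 16.5 and 21.1 CPM in young and at 16.2, 6.08 and 5.3 CPM in old (log2 fold change -1.17, standard error 0.45, edgeR adjusted p = 0.200). The 4 genes of the NDC80 complex, the microtubule-binding unit, spanned the range of this role. Nuf2 was at 36.3, 20.8 and 31.1 CPM in young and at 23.1, 6.27 and 3.28 CPM in old (log2 fold change -1.43), with the lowest old 3 value relative to young of any member. Spc24 was at 16.5, 14.1 and 16.5 CPM in young and at 13, 5.41 and 4.63 CPM in old (log2 fold change -1.03, standard error 0.40, edgeR adjusted p = 0.199), with the least scattered young libraries of all 44 genes. Spc24 and Cenpa had groups that did not overlap, and Nuf2 did not. Spc25, also separate, and Ndc80 had log2 fold changes of -1.40 and -1.32. Cenpe, a kinetochore motor, and Cenpf, a large coiled-coil protein of the outer kinetochore, had log2 fold changes of -1.23 and -1.10, and for Cenpf old 1 was 1.52 times young 2.

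Spindle assembly factors nucleate and bundle microtubules. Tpx2, the activator of Aurora A, was at 76.6, 49.6 and 86.2 CPM in young and at 51.1, 15.8 and 11.4 CPM in old (log2 fold change -1.44, standard error 0.58, edgeR adjusted p = 0.212). Hmmr, a spindle-binding protein, was at 72.8, 43.7 and 72.2 CPM in young and at 48.7, 11.4 and 8.41 CPM in old (log2 fold change -1.46). Dlgap5 (HURP), which stabilizes kinetochore fibres, was at 43.8, 28.5 and 40.3 CPM in young and at 33.8, 14 and 9.59 CPM in old (log2 fold change -0.97). In all 3 old 1 exceeded young 2, and Dlgap5 and Incenp were the only members with a log2 fold change above -1. Nusap1, which binds spindle microtubules, had a log2 fold change of -1.15.

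Cytokinesis genes had a median log2 fold change of -1.47, close to the -1.45 of the APC/C partners, and without old 1 the medians were -2.52 and -2.54. Prc1, which bundles the microtubules of the central spindle, had the most counts of any member (29795) and was at 180, 111 and 163 CPM in young (mean 151 ± 36, SD, n = 3) and at 91.5, 26.3 and 19.9 CPM in old (mean 45.9 ± 39.6, SD, n = 3). Its groups did not overlap, and old 1 was further below young 2 than for any other member. Prc1 fell by 1.73 on the log2 scale in DESeq2 (adjusted p = 0.0211), whereas edgeR gave -1.72 (standard error 0.59, adjusted p = 0.173). Anln (anillin), the scaffold of the contractile ring, was at 124, 76.2 and 129 CPM in young (mean 110 ± 29.1, SD, n = 3) and at 74.6, 22.7 and 16.5 CPM in old (mean 38 ± 31.9, SD, n = 3). Young 2 and old 1 were within 2 CPM of each other for Anln. It fell by 1.54 on the log2 scale in DESeq2 (adjusted p = 0.0446), and edgeR gave -1.53 (standard error 0.59, adjusted p = 0.199). Racgap1, the GTPase-activating partner of Kif23, was at 52.8, 35.4 and 54.7 CPM in young and at 40.3, 11.7 and 8.62 CPM in old (log2 fold change -1.24). Ect2, which activates RhoA at the division plane, had a log2 fold change of -1.41, and both had old 1 above young 2.

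Top2a and Mki67 act on chromosome structure, and both are widely used to mark cycling cells. Top2a, the topoisomerase that disentangles sister chromatids, was at 142, 82.7 and 128 CPM in young and at 101, 27.2 and 17.8 CPM in old (log2 fold change -1.27, standard error 0.65, edgeR adjusted p = 0.288). Mki67 (Ki-67), which coats mitotic chromosomes, was at 142, 87.6 and 145 CPM in young and at 103, 29.9 and 17.5 CPM in old (log2 fold change -1.31, standard error 0.65, edgeR adjusted p = 0.277). With 25039 and 26454 counts over the 6 libraries, they were among the 3 members with the most counts. Prc1, with more counts, had a standard error of 0.59. Among the 3 members with the fewest counts, standard errors were 0.49 for Kif18a, 0.69 for Kif14 and 0.48 for Trip13. Standard errors of the members with the most counts thus lay between those of the members with the fewest. For Top2a and Mki67 old 1 was above young 2, and old 2 and old 3 were below every other library.

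**Figure D3:**
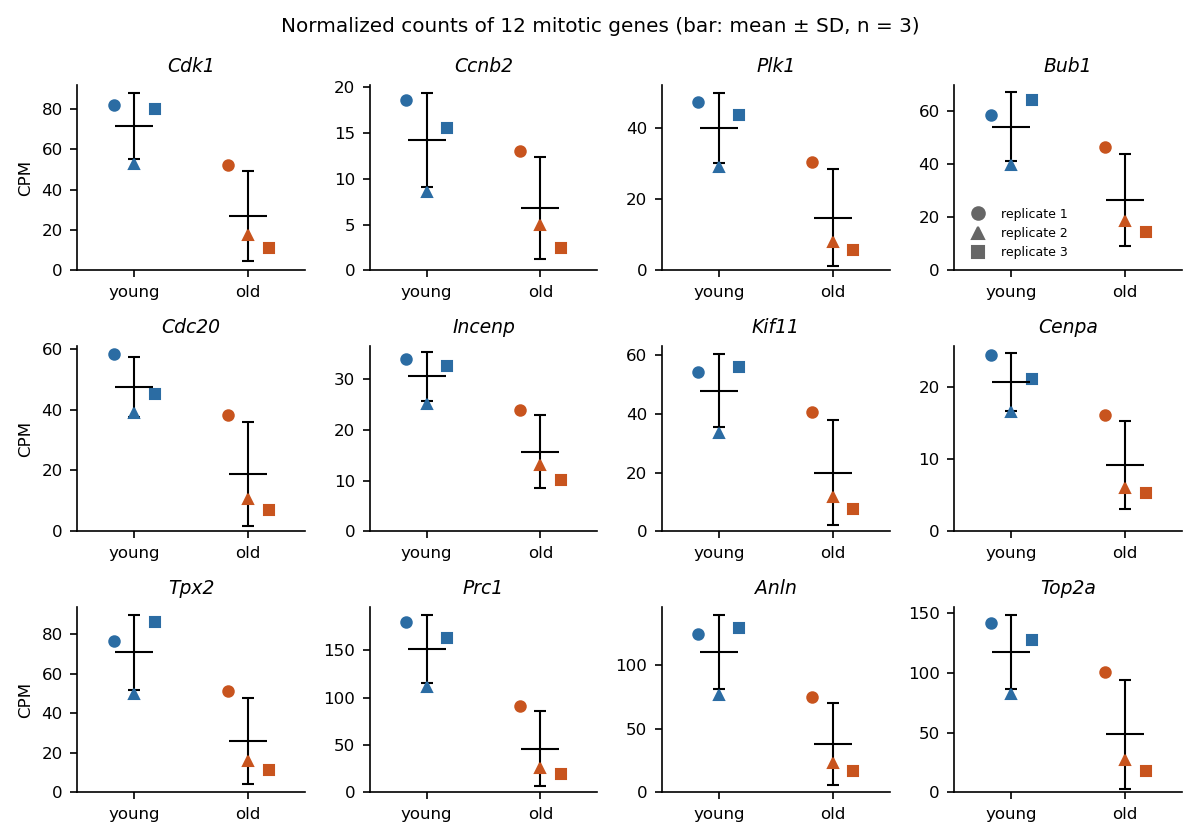
Normalized counts (CPM) of 12 mitotic genes in each library, with points for the 3 replicates of each age group and bars for the mean and SD (n = 3). How close old replicate 1 sits to young replicate 2 differs between panels. The 2 are at 52.3 and 52.4 CPM for Cdk1, 13 and 8.58 CPM for Ccnb2, and 91.5 and 111 CPM for Prc1. In each panel old replicates 2 and 3 sit below all young libraries.

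Promoter strings and age differences were set side by side for the 37 members with a window. The 33 members with TTTGAA or TTTAAA had a median log2 fold change of -1.31 (range -1.72 to -0.97). The 4 members without either string, Kif18a, Melk, Spc24 and Trip13, had a median of -1.08 (range -1.21 to -1.03). For CCAAT the medians were -1.29 with it (25 members) and -1.24 without (12 members). The ranges overlapped in each case, and no test was made between these groups.

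Other genes of cell division were read from the same fit for comparison. A list of 116 further mitotic genes gave 110 rows, of which 104 had a negative and 6 a positive log2 fold change between the ages (median -0.99, range -1.91 to 0.13). edgeR called 0 of them, with 36 lower at an unadjusted p under 0.05 (against 11.5% of all genes). DESeq2 called 10, all lower, against 3.31% of all genes. These were Arhgef39 (log2 fold change -1.91), Iqgap3 (-1.85), Mis18a (-1.79), Pbk (-1.65), Plk4 (-1.48), Nsl1 (-1.40), Spdl1 (-1.35), Kntc1 (-1.34), Gtse1 (-1.08) and Zwilch (-1.02), and Ncapd3 of condensin II (-0.87) followed Arhgef39 and Gtse1 among the smallest edgeR p values. They include kinetochore proteins (Nsl1, Spdl1, Kntc1, Zwilch), the centromere licensing factor Mis18a and Plk4, the kinase of centriole duplication. Arhgef39 was at 7.78, 6.92 and 12.5 CPM in young and at 3.86, 1.65 and 1.72 CPM in old (edgeR adjusted p = 0.0924). Gtse1, a microtubule-binding protein, was at 54, 41 and 45.1 CPM in young and at 30.9, 17.1 and 18.2 CPM in old (edgeR adjusted p = 0.0982). In both genes old 1 was below all young libraries, with old 2 and old 3 lower still.

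The subunits of the APC/C itself had log2 fold changes near 0. This comparison was chosen after the values were seen. Against log2 fold changes of -1.34 for Cdc20 and -1.56 for Ube2c, those of Anapc1, Anapc2, Anapc4, Anapc5, Anapc10, Cdc16 and Cdc23 were 0.03, 0.07, -0.06, -0.16, -0.08, 0.06 and -0.07, and their groups overlapped. Cdc27 was at -0.32 on the same scale (standard error 0.12, edgeR adjusted p = 0.181), and its groups were separate. Fzr1 and Ube2s, which also serve the APC/C, had smaller differences than Cdc20 and Ube2c. Their log2 fold changes were -0.39 and -0.58, with separate groups. The difference between the subunits and these partners was not tested.

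Genes of DNA replication and of cell cycle control showed how far the pattern reached beyond mitosis. All 21 genes of the S phase list had a lower mean in old cells (median of the log2 fold changes -1.11, range -1.82 to -0.43). edgeR called 0 of them, with 17 lower at an unadjusted p under 0.05 (against 11.5% of all genes). DESeq2 called 6, where it called 3.31% of all genes as lower in old. They were the origin licensing genes Cdc6 (-1.82) and Cdt1 (-1.65), the licensing inhibitor Gmnn (-1.67), and Mcm5 (-1.64), Cdc45 (-1.52) and Mcm3 (-1.35) of the replicative helicase. The medians of all 21 S phase genes were 79.1%, 31.3% and 26.1% of the young mean in old 1, old 2 and old 3. The genes differed in how far the old libraries lay apart. Mcm7, Ccne1 and Tyms, named after their values were seen, had old libraries closer together, with Mcm7 at 18.8, 13.8 and 12.1 CPM, Ccne1 at 13.8, 11.2 and 9.94 CPM and Tyms at 27.5, 20.2 and 21.1 CPM in old 1 to 3. The 3 old libraries were all below the young ones for 11 of the 21 S phase genes, against 14.7% of all genes. The highest level of an S phase gene was 65.6% in old 2 and 68.4% in old 3. Of 18 regulators of the E2F, Rb and MuvB families, 15 were lower, against 48% of all genes, with a median log2 fold change of -0.36. The 3 higher ones, named after their values were seen, were Tfdp2 (0.50) and Rbl2 (0.47), with separate groups, and Rb1 (0.11). DESeq2 called Mybl2 (-1.75), which encodes B-Myb, and E2f7 (-1.66), a repressor E2F.

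E2f6, a repressor of the E2F family, had the smallest edgeR p of these lists and a different pattern. It was at 78.7, 81.6 and 69.4 CPM in young and at 39.7, 37.3 and 39.2 CPM in old, so that old 1 did not stand apart from the other old libraries. The log2 fold change of E2f6 was -0.98 (standard error 0.09, edgeR adjusted p = 0.0531). Cdc25a, the phosphatase that activates Cdk2 and Cdk1, was at 20.5, 20.9 and 22.9 CPM in young and at 14.2, 13.4 and 11.2 CPM in old (log2 fold change -0.73, edgeR adjusted p = 0.0638). Ccnd3 (cyclin D3) was at 110, 115 and 132 CPM in young and at 84.2, 76.8 and 70.6 CPM in old (log2 fold change -0.62, edgeR adjusted p = 0.0651). In these 3 genes the age groups were separate and the replicates of a group were close together. Ccnd2 (cyclin D2) was called by DESeq2 (log2 fold change -1.57), with 116, 152 and 264 CPM in young and 60.6, 22.5 and 96.6 CPM in old. Its lowest library was old 2 and not old 3.

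CDK inhibitors hold cells out of the cycle, and 5 of the 7 in the list were higher in old, with 0 called by edgeR or DESeq2 and 4 higher at an unadjusted edgeR p under 0.05, which held for 11.2% of all genes. They were looked at one by one after their values were seen. Cdkn1a (p21) was at 228, 185 and 140 CPM in young and at 240, 276 and 257 CPM in old (log2 fold change 0.48, edgeR adjusted p = 0.198). Cdkn1b (p27) was at 36.5, 34.6 and 36.7 CPM in young and at 48.7, 66.9 and 43.9 CPM in old (log2 fold change 0.57, edgeR adjusted p = 0.136). The groups of both were separate, and old 1 was among the old libraries for both. Cdkn2b (p15) was at 40.8, 36.2 and 54.6 CPM in young and at 77.6, 50.8 and 199 CPM in old (log2 fold change 1.31, edgeR adjusted p = 0.199), with old 3 highest. Cdkn1c (p57) had the largest difference and few counts, with 0.0886, 0.366 and 0.611 CPM in young and 0.161, 3.39 and 3.84 CPM in old (log2 fold change 2.78, standard error 1.14, edgeR adjusted p = 0.216). Old 1 lay among the young libraries for Cdkn1c, and without old 1 edgeR and DESeq2 called it (log2 fold change 3.33, edgeR adjusted p = 0.0473). Cdkn2a had a log2 fold change of 0.26 (edgeR adjusted p = 0.410), and the values of Cdkn2c and Cdkn2d were -0.48 and -0.35, with overlapping groups in all 3.

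**Figure D4:**
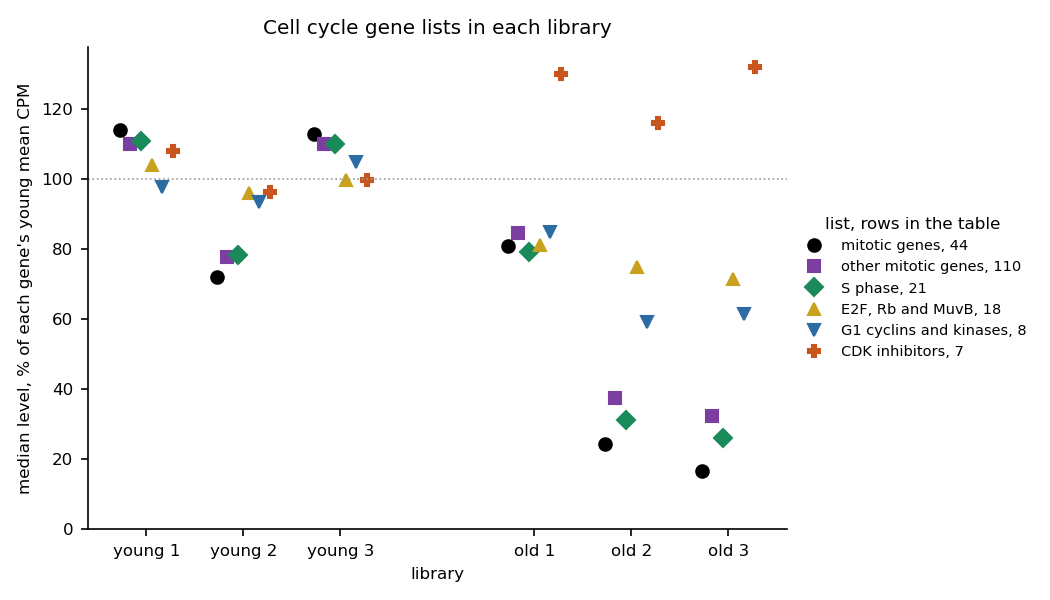
Median level of each gene list in each library, as a percentage of each gene's mean CPM over the 3 young libraries, with 1 symbol per list. The mitotic and S phase lists are low in old 2 and old 3 (24.3% and 16.7%, and 31.3% and 26.1%) and stay at 80.8% and 79.1% in old 1, while the CDK inhibitors lie at 130%, 116% and 132% in old 1 to 3.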

How the data were processed

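Cultured SFA VSM cells of rats aged 4 months (young, n = 3) and 24 months (old, n = 3) were compared, and polyadenylated RNA was sequenced as stranded paired-end libraries. The authors trimmed reads with Cutadapt 3.5 through Trim Galore 0.6.7, aligned them with STAR 2.7.10b to Rnor 6.0 and counted genes with featureCounts of Subread 2.0.8, as the methods and the submitters' processing notes give it. The counts that the authors deposited are raw whole numbers per gene and library, filtered by them so that each gene has 10 counts in at least 3 libraries. The sources used here give no strand or multi-mapping settings, and counts of genes that share reads with near-identical copies are therefore uncertain. Between 68.7% and 71.1% of counts from 1 to 19 were even in each library, as counting both mates of a pair would leave. Counts without a gene symbol made up 1.48% to 1.66% of a library, and 0 columns were left unused. Replicates were not repeats of a library (chi-square per gene of at least 67.1, Spearman's rho 0.973 to 0.991 across genes, which are not independent).

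Young and old were compared in R 4.3.3 with the quasi-likelihood test of edgeR 4.0.16 on all genes (TMM, no covariates, Benjamini-Hochberg). Calls required an adjusted p under 0.05 with a log2 fold change of 1 or more in size. For the standard error, the size of the log2 fold change was divided by the root of F. DESeq2 1.42.0 (Wald test, independent filtering set to 0.05) was an alternative and gave 292 genes no adjusted p, voom of limma 3.58.1 was another, and each library was left out in turn. The edgeR, DESeq2 and limma-voom fits of old against young were tested on simulated data. Each simulated gene had the same dispersion in both groups, so the wider spread of the mitotic genes among old libraries was not covered. The genes, lists, tests and naming rule were chosen with earlier results of these data known. Every gene of the set was named, and values of each library were given for the first gene of each role, the extremes of roles with 4 or more genes, genes called by edgeR or DESeq2, and the 3 genes with the most and the fewest counts. From the comparison lists, called genes and the 3 with the smallest edgeR p were named. Promoter sequences were RefSeq, assembly GRCr8.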

Additional observations from a re-analysis of the deposited data

How the results depend on the processing

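All 44 mitotic genes kept a negative log2 fold change under every alternative run, namely RLE size factors, library size only, filterByExpr, 10 counts in at least 4 libraries, DESeq2, limma-voom, the replicate block, halved counts and each library left out. The calls did not keep their number. Over all genes edgeR called 1, DESeq2 805, limma-voom 0 and edgeR at an adjusted p under 0.1 381, and of the mitotic genes DESeq2 called 2. With each library left out, edgeR called 0 to 732 genes and 0 to 43 mitotic genes. The median log2 fold change of the mitotic genes then lay between -2.31 and -0.91. The old libraries were all below the young ones for 11 to 44 of the mitotic genes. The same held for 17.9% to 25.8% of all genes, with the highest share without old 1. The upper ends of the calls and the median of -2.31 came without old 1. DESeq2 with each library left out, an alternative chosen after seeing the data, called 737, 551 and 600 genes without young 1, 2 and 3 and 1377, 614 and 651 without old 1, 2 and 3, and 44 mitotic genes without old 1 against 0 in the other fits, with medians between -2.32 and -0.92. The cause was not tested. Correlations of same-numbered deviations were 0.0316, 0.263 and 0.264. For young 2 and young 3 the same-numbered old library had the highest correlation, while young 1 correlated best with old 2, at 0.294. With 3 libraries per group, these values cannot decide whether the replicate numbers pair the cultures. With the replicate block edgeR called 1 gene and 0 mitotic genes, with a median of -1.62. Each mitotic gene had at least 82 counts in every library, so counting error was small beside the spread between old libraries.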
